A study of Mus musculus with 2 samples.

Results

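The genes described here encode the coat of the lipid droplet and the machinery that breaks its triacylglycerol down. They are 10 genes, chosen by name from the 44291 genes in the expression files, namely Plin1, Plin2, Plin3, Plin4, Cidec, Pnpla2, Lipe, Abhd5, Hilpda and G0s2. All 10 were found, and 9 had a mean FPKM of at least 1 over the 2 libraries, the level at which 13401 genes of the whole series were compared. Cidec was below that level and is given by its values alone. FPKM is the number of reads scaled to the length of the exons and to the reads assigned to genes. Comparisons between libraries still depend on this scaling, and other scalings are described at the end.

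The cells were primary fibro-adipogenic progenitors (FAPs) of WT mice, the mesenchymal cells of skeletal muscle that give rise to fat within injured muscle. The cells of 1 library were treated with platelet-rich plasma (PRP) and those of the other with vehicle (control), and both were kept in the same adipogenic induction medium. It held serum, insulin, dexamethasone (a glucocorticoid) and IBMX, which blocks phosphodiesterases and so raises cAMP. The labels call the treatment PRP, while the methods of the study speak of exosomes prepared from human PRP, and the time under induction is not given in the labels. With 1 library in each group, no difference described here has a replicate check and no test between the treatments was run.

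Neutral fat in a cell is stored in droplets whose surface is covered by proteins of the perilipin family. PLIN1 belongs to mature adipocytes, where it holds the lipase co-activator ABHD5 until hormones and cAMP release it. PLIN2 and PLIN3 cover droplets in most other cells, and PLIN4 coats small, newly formed droplets. Once freed, ABHD5 activates the triacylglycerol lipase ATGL (Pnpla2), hormone-sensitive lipase (Lipe) acts next, and the small proteins G0S2 and HILPDA bind and inhibit ATGL.

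Reads assigned to genes numbered 40120843 for PRP and 34139741 for control. Mitochondrial genes took 2.06% and 3.70% of the summed FPKM, and the 10 genes 0.0485% and 0.0364%. Read numbers were worked out from the FPKM values, and each interval below is a 95% interval of counting error on read pairs. Exact Poisson intervals are given for levels and exact Clopper-Pearson intervals for ratios. They compare these 2 libraries only, and any PCR duplicates would make them too narrow. Every FAP marker of a list of 8 was detected in both libraries, and so were the adipocyte genes Adipoq (5.49 FPKM with PRP, 5.22 in control) and Fabp4 (40.7 and 33.6 FPKM). Of 7 macrophage markers, 2 reached a mean of 1 FPKM, and Adgre1, which defines mouse macrophages, had 0.0308 and 0.0543 FPKM. The 4 platelet markers were each below a mean of 1 FPKM, and Ppbp and Gp9 were listed at 0 in both libraries. Itga2b had 0.567 FPKM with PRP and 0.365 FPKM in control (ratio 1.55, 1.01 to 2.43). Pf4 had 0.0691 and 0 FPKM, from 2 and 0 reads.

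The droplet coat was dominated by Plin2 in both libraries, and Plin2 was the coat gene with the largest difference. PRP-treated FAPs had 112.4 FPKM of Plin2 and control FAPs 54.2 FPKM, from 15843 and 6498 reads. PRP over control this gave a ratio of 2.07 (1.99 to 2.16), and the log2 fold change, computed with a pseudocount of 1 FPKM, was 1.04. Plin4 differed the other way, with 6.27 FPKM under PRP and 11.6 FPKM in control FAPs. Its ratio was 0.540 (0.493 to 0.590, from an exon length of 6350 bases inferred from the FPKM values) and its log2 fold change -0.79. Plin3 was nearly level between the libraries, at 13.7 and 14.2 FPKM, a ratio of 0.962 (0.879 to 1.05).

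**Figure D1:**
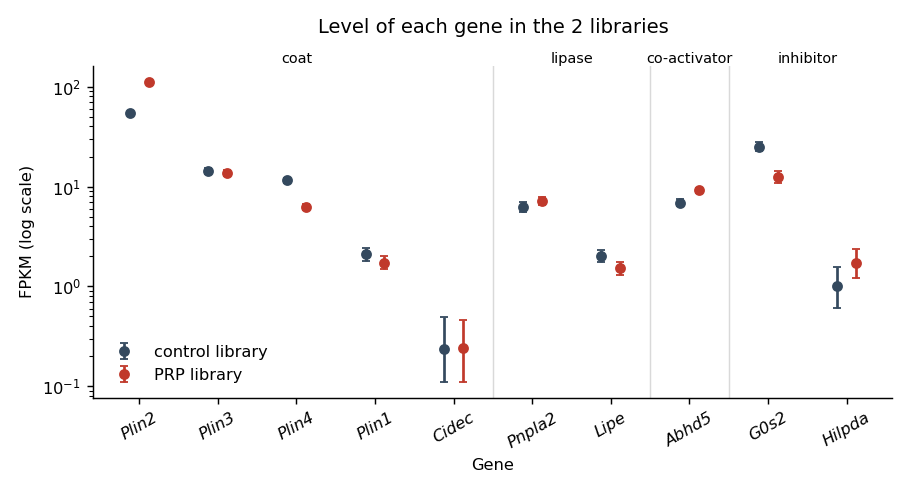
FPKM of the 10 genes (vertical axis, log scale) in the control library and the PRP library, grouped by the role of the protein; points are the single library of each group and bars are 95% Poisson intervals of counting error. Plin2 sits highest in both libraries, at 54.2 and 112.4 FPKM, and Cidec lowest, at 0.237 and 0.242 FPKM.

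Plin1 and Cidec, which belong to the adipocyte droplet, were low in both libraries. Plin1 had 1.73 FPKM with PRP and 2.10 FPKM without (ratio 0.823, 0.661 to 1.03), an interval that includes no difference. Cidec, which enlarges droplets by fusing them in adipocytes, had 0.242 and 0.237 FPKM, from 18 and 15 reads, a log2 fold change of 0.01. The interval of its ratio ran from 0.328 to 2.85, so that no difference was detectable at this depth. Plin5, the perilipin of oxidative tissues and no member of the group, had 0.0717 and 0.0421 FPKM, from 6 and 3 reads.

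The make-up of the perilipin transcripts also differed between the libraries. Plin2 accounted for 83.8% of the summed FPKM of the 5 perilipins under PRP and for 65.9% in control FAPs. The share of Plin4 was 4.67% against 14.1%, that of Plin3 10.2% against 17.3% and that of Plin1 1.29% against 2.56%. The perilipins summed to 134.2 FPKM with PRP and 82.2 FPKM in control, whereas without Plin2 they summed to 21.8 and 27.98 FPKM. A ratio of 2 genes within a library does not depend on how the libraries were scaled. Plin2 stood at 17.9 times the level of Plin4 with PRP and at 4.67 times without, and the exact conditional odds ratio of their read pairs was 3.84 (3.48 to 4.24). Measured against Plin3, Plin2 was higher by an odds ratio of 2.16 (1.95 to 2.38) and Plin4 lower by 0.561 (0.494 to 0.637), while for Plin1 the odds ratio of 0.858 had an interval from 0.675 to 1.09.

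**Figure D2:**
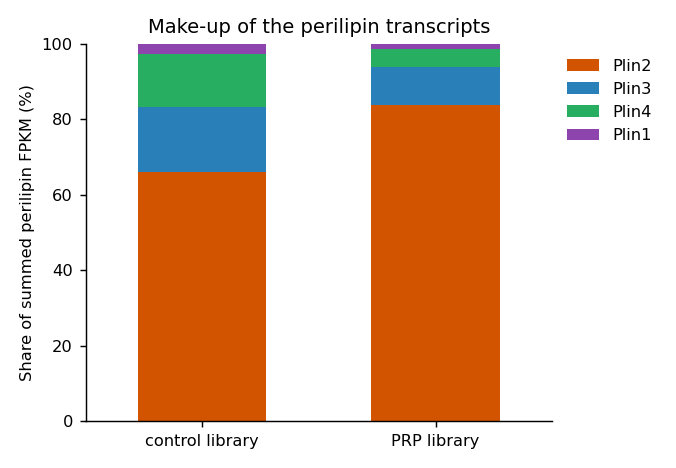
Share of each perilipin in the summed FPKM of Plin1 to Plin5 (vertical axis, percent) in the single control library and the single PRP library; Plin5 is too low to be seen. Plin2 makes up 65.9% in the control library and 83.8% in the PRP library, and the shares of Plin3, Plin4 and Plin1 are each smaller in the PRP library.

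Plin2 lies on mouse chromosome 4, from 86648386 to 86670060 on the minus strand of GRCm38 (mm10), and Plin4 on chromosome 17, from 56100591 to 56109803 on the minus strand. The 250 bases before their RefSeq start sites (GRCm38.p6) are shown because these coat genes differed in opposite directions. Capitals mark any match on either strand to AGGTCA (the repeat unit bound by PPAR and related nuclear receptors), TGACG (the core of the cAMP response element), ACGTG (the core of the hypoxia response element) or TATAAA.
Plin2, chr4:86670060-86670309, minus strand: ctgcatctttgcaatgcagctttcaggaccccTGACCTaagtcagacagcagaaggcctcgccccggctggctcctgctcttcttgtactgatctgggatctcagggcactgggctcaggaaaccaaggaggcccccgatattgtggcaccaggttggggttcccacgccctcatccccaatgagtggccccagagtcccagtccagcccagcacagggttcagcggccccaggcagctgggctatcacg
Plin4, chr17:56109783-56110032, minus strand: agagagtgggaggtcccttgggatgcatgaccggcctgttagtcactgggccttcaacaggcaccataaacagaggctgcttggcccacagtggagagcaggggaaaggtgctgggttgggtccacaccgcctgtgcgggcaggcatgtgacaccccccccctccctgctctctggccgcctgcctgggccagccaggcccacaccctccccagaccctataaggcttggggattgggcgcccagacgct
The Plin2 window held a single AGGTCA, on the opposite strand and starting at -218 from the start site, a motif present in 14.02% of 32851 mouse promoter windows of this length. The Plin4 window held none of the 4 motifs. The full direct repeat AGGTCANAGGTCA was searched for as exact letters within these 250 bases only. It was in none of the members' windows and in 0.0335% of all windows, too rare for its absence to be informative.

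The lipases and their co-activator differed by less than Plin2 and Plin4 did. Pnpla2, which encodes the lipase that takes the first step, had 7.23 FPKM after PRP and 6.27 FPKM in control FAPs. The ratio of 1.15 had an interval from 0.997 to 1.34, which reaches no difference. Abhd5, its co-activator, was higher, at 9.15 against 6.89 FPKM (ratio 1.33, 1.21 to 1.46). Lipe was lower, at 1.51 against 2.01 FPKM (ratio 0.752, 0.610 to 0.922). Relative to Pnpla2, Lipe was lower by an odds ratio of 0.650 (0.503 to 0.839), while Abhd5 stood at 1.15 (0.965 to 1.37), an interval that includes no difference.

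Abhd5 and Lipe each share about 16% of their exon length with a gene on the other strand (16.0% and 15.6%), and whether reads were counted by strand is not stated in the sources used here. A730085K08Rik had 2.87 and 2.59 FPKM (ratio 1.11, 0.834 to 1.48), beside 9.15 and 6.89 FPKM for Abhd5. 4732471J01Rik had 0.938 and 1.35 FPKM, beside 1.51 and 2.01 FPKM for Lipe. Its ratio of 0.697, without an interval, went the same way as that of Lipe. The part of these reads in the values of Abhd5 and Lipe was not tested.

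Of the lipase inhibitors, G0s2 was lower with PRP, and for Hilpda the interval included no difference. G0s2 had 12.5 FPKM with PRP and 24.99 FPKM in control FAPs, a ratio of 0.499 (0.420 to 0.591) from 436 and 743 reads, and a log2 fold change of -0.95. Of the 13401 genes compared, 140 had a lower fold change. Hilpda was the less abundant inhibitor, at 1.72 and 1.01 FPKM. With 76 and 38 reads its ratio of 1.70 had an interval from 0.957 to 3.13, so that a difference was not detectable at this depth.

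Inhibitor transcripts were fewer per lipase transcript with PRP, a difference carried by G0s2. G0s2 stood at 1.73 times the level of Pnpla2 with PRP and at 3.99 times in control (odds ratio 0.432, 0.344 to 0.542). Hilpda stood at 0.238 and 0.161 times the level of Pnpla2 (odds ratio 1.47, 0.812 to 2.76). Both inhibitors summed to 1.96 times the FPKM of Pnpla2 with PRP and 4.15 times in control. Against Abhd5, G0s2 was lower by an odds ratio of 0.376 (0.308 to 0.457). Hilpda stood at 0.138 times the level of G0s2 with PRP and at 0.0404 times in control (odds ratio 3.41, 1.86 to 6.42).

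**Figure D3:**
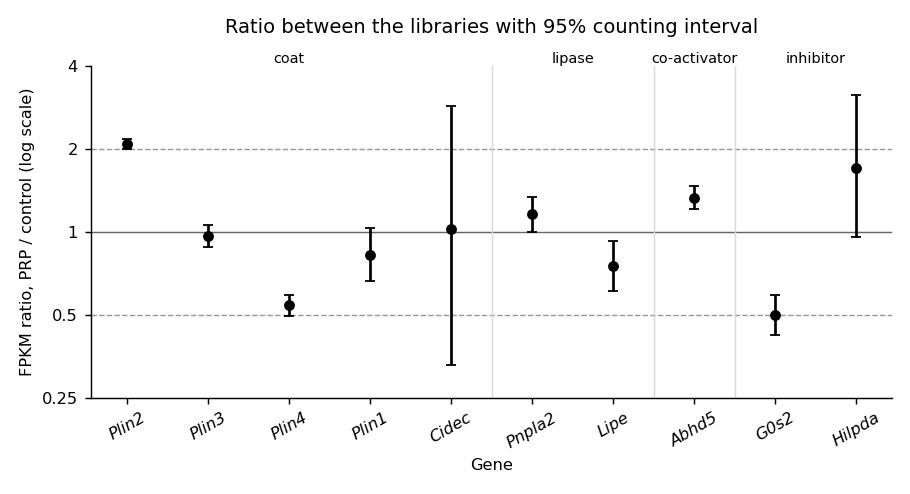
Ratio of FPKM in the PRP library to the control library (vertical axis, log scale) for the 10 genes; bars are exact 95% intervals of counting error, the solid line marks no difference and the dashed lines a 2-fold difference. The intervals of Plin2 and Abhd5 lie above 1, those of Plin4, Lipe and G0s2 lie below 1, and the other 5 include 1.

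G0s2 lies on chromosome 1, from 193272161 to 193273217 on the minus strand. Its window of 250 bases is shown because it had the lowest ratio of the 10 genes. On the opposite strand it held a single TGACG starting at -246, a motif found in 17.8% of all windows, and a GC box (GGGCGG) at -18, found in 32.7%.
G0s2, chr1:193273189-193273438, minus strand: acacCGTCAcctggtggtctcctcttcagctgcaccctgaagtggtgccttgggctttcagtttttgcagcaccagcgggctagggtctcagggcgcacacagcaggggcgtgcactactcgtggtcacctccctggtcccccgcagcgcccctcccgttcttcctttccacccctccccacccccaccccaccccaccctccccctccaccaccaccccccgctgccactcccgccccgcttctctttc

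The order of the levels also differed between the libraries. In the control library it ran from Plin2 through G0s2, Plin3, Plin4, Abhd5, Pnpla2, Plin1, Lipe and Hilpda to Cidec, where the intervals of Abhd5 and Pnpla2 and those of Plin1 and Lipe overlapped and all other neighbours were apart. In the PRP library Plin3 was second, with 13.7 FPKM (12.9 to 14.6), and was followed by G0s2, with 12.5 FPKM (10.9 to 14.2). Their intervals overlapped. Next came Abhd5, Pnpla2, Plin4, Plin1, Hilpda, Lipe and Cidec. There the intervals of Pnpla2 and Plin4 overlapped, as did those of Plin1, Hilpda and Lipe.

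With the pseudocount of 1 FPKM, 1 of the 9 genes compared differed by at least 2-fold in either direction, against 2.83% of all 13401 genes. This was Plin2, which ranked as number 241 from the highest fold change, where 2.00% of all genes were at least 2-fold higher. The plain ratio of G0s2, 0.499, was also just past 2-fold, but its log2 fold change with the pseudocount was -0.95. At a threshold of 1.5-fold 3 of the 9 passed (Plin2, Plin4 and G0s2), against 10.7% of all genes. The counting interval left out a ratio of 1 for 5 of the 9 with an interval, near the 52.3% among the 12374 of all genes with an interval. Such intervals narrow as reads rise, so this share, here and in the lists below, also depends on read numbers. The median log2 fold change was -0.05 over the 9 genes and 0.01 over all genes, with 4 of the 9 higher and 5 lower.

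**Figure D4:**
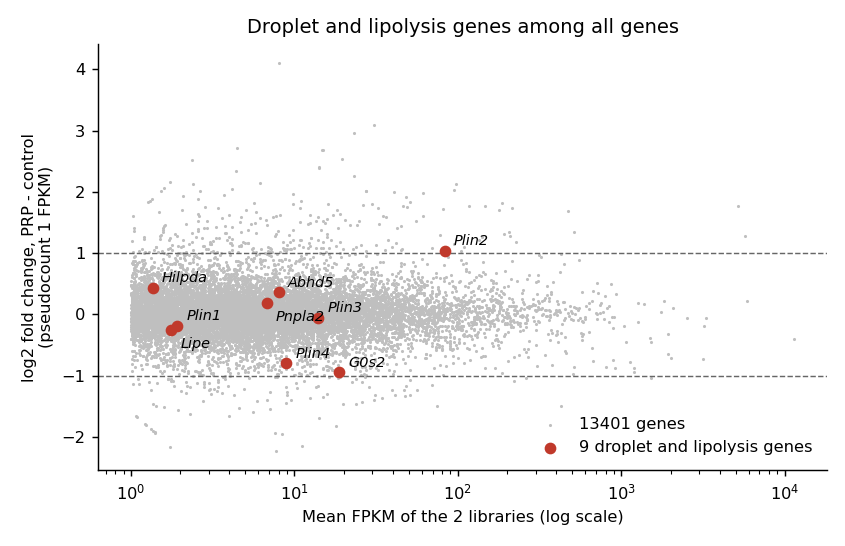
Log2 fold change between the PRP and control libraries with a pseudocount of 1 FPKM (vertical axis) against mean FPKM (horizontal axis, log scale) for 13401 genes in grey and the 9 droplet and lipolysis genes in red; dashed lines mark 2-fold. Plin2 lies just above the upper line at 1.04, and G0s2 (-0.95) and Plin4 (-0.79) lie just inside the lower line.

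Of 978 genes with at least 50 FPKM in both libraries, 19 (1.94%) were at least 2-fold higher, near the share among all genes, and Plin2 was number 18 of these by fold change. The 5 genes nearest to Plin2 by the distance of their log2 levels in the 2 libraries were F2r, Gm54754, Bst2, Txnrd1 and Sbds, at distances from 0.127 to 0.318 on the log2 scale. F2r, the thrombin receptor PAR1, had 113.8 and 59.2 FPKM (ratio 1.92, 1.84 to 2.00). Txnrd1, thioredoxin reductase, had 110.6 and 44.5 FPKM (2.49, 2.41 to 2.57), and Bst2, an interferon-induced membrane protein, had 130.3 and 57.9 FPKM (2.25, 2.08 to 2.43). A likeness over 2 libraries is only a likeness of a level and a ratio.

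Among other proteins of the droplet surface and of droplet formation, most did not differ beyond counting error. Of 26 listed genes found in the files, 18 were compared. Their counting intervals lay below 1 for 6 and above 1 for 2 (44.4% off 1, against 52.3% of all genes with an interval), and the other 10 included 1. By sign alone 3 were higher and 15 lower, against 49.1% lower among all genes, with a median log2 fold change of -0.08. Those at least 2-fold lower were Nsdhl, with 3.76 against 10.5 FPKM (ratio 0.358, 0.304 to 0.422), and Acsl3, with 4.99 against 12.7 FPKM (0.394, 0.350 to 0.441). Neither is a structural coat protein, since NSDHL is an enzyme of cholesterol synthesis and ACSL3 activates fatty acids for esterification at new droplets. Rmdn1 had the next largest difference (2.48 against 3.48 FPKM). Seipin (Bscl2) and the other genes compared lay within 1.5-fold on the log2(FPKM + 1) scale.

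No other hydrolase or synthesis enzyme reached a 2-fold difference on that scale. Of 10 other neutral lipid hydrolases compared, 7 were higher (70%, against 50.9% of all genes) and 3 lower, with a median of 0.11. Lipa, the acid lipase of the lysosome, had 6.35 FPKM under PRP and 3.86 FPKM in control (ratio 1.64, 1.47 to 1.85). Abhd4 had 20.4 against 15.3 FPKM and Nceh1, a cholesterol ester hydrolase, 4.12 against 3.42 FPKM. Of 14 genes of triacylglycerol and sterol ester synthesis, 7 were higher and 7 lower, with a median of -0.001. The largest difference there was that of Soat2, which esterifies cholesterol, with 1.67 against 0.503 FPKM (ratio 3.31, 1.98 to 5.81) from 148 and 38 reads, although it stays under 2-fold once the pseudocount is added. Its sister gene Soat1 had 9.26 against 7.39 FPKM (1.25, 1.17 to 1.35), and Agpat1 had 4.46 against 5.49 FPKM. Mgll, which completes lipolysis by cleaving monoacylglycerol, was low at 0.295 and 0.369 FPKM.

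Genes on the list of hormonal control of lipolysis differed in both directions, with more of them lower under PRP. Of 23 compared, 4 were higher and 19 lower (82.6%, against 49.1% of all genes), with a median of -0.22, and none passed 2-fold. The counting interval lay below 1 for 16 and above 1 for 3 (82.6% off 1, against 52.3% of all genes with an interval). The list holds deeply read genes, such as Gnas with 31003 and 30139 reads, whose ratio of 0.875 was off 1. The 2 shares were not matched for depth. Those above 1 were Gnai1 (ratio 1.93), Irs2 (1.66) and Akap1 (1.29). Genes of insulin signalling went both ways. Insr (0.756), Akt1 (0.854) and Akt2 (0.742) were below 1, while Irs2 was above 1. The interval of Irs1 (0.927, 0.839 to 1.02) included 1. The phosphodiesterase gene Pde3a (0.816) was below 1. Prkaca, the catalytic subunit of protein kinase A that phosphorylates PLIN1 and HSL, had 11.5 FPKM with PRP and 22.3 FPKM in control (ratio 0.514, 0.462 to 0.570). Mapk3, which encodes ERK1, had 13.7 against 24.0 FPKM (0.572, 0.516 to 0.633), and the adenylyl cyclase gene Adcy9 had 2.44 against 4.24 FPKM (0.574, 0.488 to 0.676). Adrb3, an adrenergic receptor gene of adipocytes, was low at 0.443 and 0.555 FPKM.

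Plin2 and Hilpda are each known as targets of fatty acid-activated PPARs and of hypoxia, so these programmes were set beside them. Of 17 PPAR targets compared, 6 were higher and 11 lower (64.7%, against 49.1% of all genes), with a median of -0.05. Intervals lay above 1 for 5 and below 1 for 6 (64.7% off 1, against 52.3% of all genes with an interval). The only gene past 2-fold was Acot2, a mitochondrial thioesterase, with 8.84 against 3.69 FPKM (ratio 2.39, 1.98 to 2.94). Angptl4 (8.26 against 6.23 FPKM) and Pdk4 (13.3 against 9.24 FPKM) were also higher, whereas the enzymes of fatty acid oxidation Acadvl (9.90 against 14.9 FPKM) and Acaa2 (12.1 against 17.3 FPKM) were lower. Of 22 hypoxia-inducible genes 8 were higher and 14 lower (63.6%, against 49.1% of all genes). Intervals lay above 1 for 3 and below 1 for 11 (63.6% off 1, against 52.3% of all genes with an interval). The median was -0.11, and all lay within 1.5-fold on the log2(FPKM + 1) scale. Those that differed most were Pfkfb4 (1.05 against 1.93 FPKM), Adm (73.7 against 105.7 FPKM) and Pdk1 (2.11 against 3.33 FPKM), all lower. The part of either programme in the values of Plin2 and Hilpda was not tested.

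**Figure D5:**
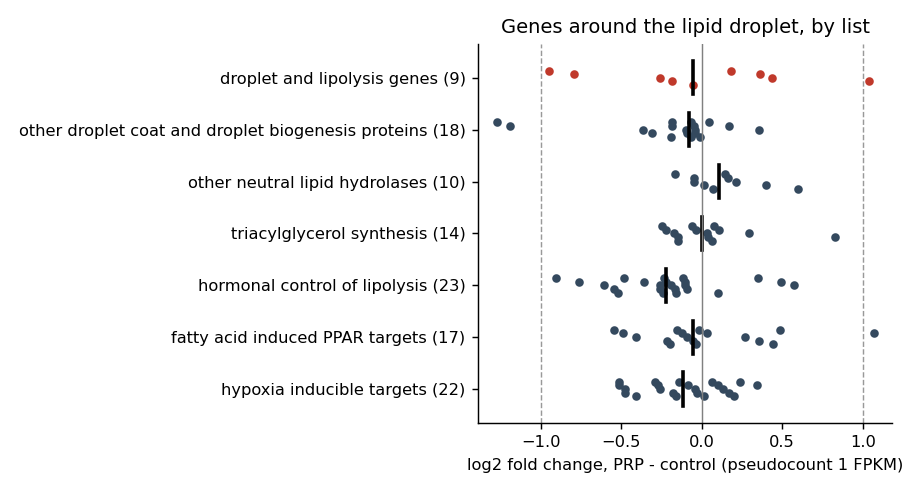
Log2 fold change between the PRP and control libraries (horizontal axis, pseudocount of 1 FPKM) for each gene with a mean FPKM of at least 1, by list, with the number of genes in brackets; black bars are medians and dashed lines mark 2-fold. Only Plin2, Nsdhl, Acsl3 and Acot2 lie beyond a dashed line, and the medians lie between -0.22 and 0.11.

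Markers of the progenitors themselves were lower with PRP beside these differences. All 8 FAP markers were lower, with a median log2 fold change of -0.63 and a summed level of 335.9 FPKM with PRP against 569.9 FPKM in control. Dpt (18.8 against 50.2 FPKM), Col3a1 (26.9 against 53.7 FPKM) and Col1a1 (118.6 against 218.7 FPKM) were the lowest by fold. Gsn (ratio 0.574), Pdgfra (0.710) and Cd34 (0.780) came next. Ly6a (0.902, 0.838 to 0.973) and Dcn (0.901, 0.819 to 0.992) were nearest to level. Among all genes compared 49.1% were lower. Of the 6 adipocyte markers, 4 were compared and all had higher values in the PRP library, where 50.9% of all genes were higher. Intervals lay above 1 for Pparg (8.69 against 6.55 FPKM, ratio 1.33, 1.15 to 1.53) and Fabp4 (1.21, 1.15 to 1.27). They included 1 for Adipoq and Cfd. Below the level for comparison, Lep had 0.0149 against 0.0524 FPKM and Retn 0.316 against 0.519 FPKM, lower values with intervals that included 1. Fabp4 is also on the list of PPAR targets. The 7 macrophage markers summed to 10.4 and 10.7 FPKM, with Cd68 higher (4.56 against 2.31 FPKM) and Lyz2 lower (4.91 against 7.57 FPKM). The 5 endothelial markers summed to 9.39 and 5.29 FPKM, and the ratio of Kdr was 2.82 (2.43 to 3.28). Tek had 4.73 against 3.56 FPKM (ratio 1.33, 1.15 to 1.55). Pecam1 (0.188 and 0.0470 FPKM), Vwf (0.144 and 0.0839 FPKM) and Cdh5 (0.0949 and 0.0976 FPKM) were low. Ratio intervals still lay above 1 for Pecam1 (1.53 to 13.7, from 47 and 10 reads) and Vwf (1.01 to 2.94). That of Cdh5 (0.308 to 3.15) included 1. The 6 myogenic markers summed to 18.3 and 14.7 FPKM, with Myog and Pax7 listed at 0, and the 4 platelet markers to 0.636 and 0.365 FPKM. Acta1 had 15.1 against 11.1 FPKM (ratio 1.36, 1.17 to 1.57) and Myh3 0.280 against 0.126 FPKM (2.23, 1.14 to 4.60). The intervals of Des and Myod1 included 1. In these bulk libraries fewer cells of a type and less RNA per cell cannot be told apart, and the part of cell makeup in the values of Plin2, Plin4 and G0s2 was not tested.

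Matches to the seeds of let-7f-5p and miR-16-5p (bases 2 to 8, in capitals), microRNAs that the study looked at in its exosomes, were searched for in the 10 genes. The mature sequences are those of mouse in RefSeq, and the 3'UTRs those of GENCODE M21 (GRCm38).
mmu-let-7f-5p: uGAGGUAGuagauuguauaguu
mmu-miR-16-5p: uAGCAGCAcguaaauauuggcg
No member had the let-7 match CTACCTC in its longest 3'UTR, against 9.85% of the 10287 genes compared that have a 3'UTR. For miR-16 the match TGCTGCT was found in 4 of the 10 genes, namely Plin3, Pnpla2, Lipe and G0s2, against 24.6% of the genes compared. The matches are shown with their surroundings, in the sense of the transcript, because they lie in the coat, lipase and inhibitor genes alike. Pnpla2 holds 2 matches that overlap, of which the first is shown.
Plin3, chr17:56277710-56277733, minus strand: tcctctgggaacTGCTGCTtttct
Pnpla2, chr7:141459984-141460007, plus strand: gaactccacatcTGCTGCTgctcc
Lipe, chr7:25379707-25379730, minus strand: accactgccttcTGCTGCTgtgac
G0s2, chr1:193272320-193272343, minus strand: ctgggactgattTGCTGCTgtgca
The 4 genes with a match differed among themselves, with ratios of 0.962 for Plin3, 1.15 for Pnpla2, 0.752 for Lipe and 0.499 for G0s2. The genes without a match to either microRNA had ratios of 2.07 (Plin2), 1.70 (Hilpda), 1.33 (Abhd5), 1.02 (Cidec), 0.823 (Plin1) and 0.540 (Plin4). The part of the microRNAs in any of these values was not tested. A match describes the letters of the 3'UTR and is not evidence of binding.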

How the data were processed

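RNA was extracted with TRIzol from FAPs and made into stranded mRNA libraries, 1 per group (PRP and control). Per the labels, the authors trimmed reads with fastp 0.23.4, aligned them to mm10 with STAR 2.5.3a and counted them with featureCounts. The deposited unit is FPKM, as the authors computed it. The annotation release is not given in the sources used here.

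Fold changes are differences of log2(FPKM + 1), PRP less control, over genes averaging 1 FPKM or more. The pseudocount understates changes of low genes. Reads were recovered from FPKM with GENCODE M21 exon lengths and came out whole within 0.001 reads in both libraries for 26406 of 28160 genes (93.8%). Even numbers were in excess (79.3% and 80.3% of genes with up to 8 reads), so reads were divided by 2 for the intervals. For Plin4 the M21 length of 5777 bases gave no whole reads, and 6350 bases, the only length between 0.5 and 2 times that value to do so, was used instead, a choice made after seeing the data. As FPKM are not counts and neither group has a replicate, no test was run. The procedures were tested on simulated data.

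The members and lists were chosen with earlier results of these data known. Besides the 10 members, the text names from each list the genes past 2-fold and the 3 with the largest fold change, the 5 genes nearest to Plin2, and markers. Others (among them Plin5, Mgll, Adrb3, Bscl2, Angptl4, Pdk4, Adgre1 and overlapping genes) were named after their values were seen. The alternatives changed the pseudocount (0.1 or 5 FPKM), the low-value filter (absent, or at 5 FPKM), the scaling, centring and thresholds of 1.5-fold and 4-fold. Python 3.11.15, NumPy 2.4.6, pandas 2.3.3, SciPy 1.17.1 and matplotlib 3.10.9 were used.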

Additional observations from a re-analysis of the deposited data

How the results depend on the processing

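Rescaling and centring, the settings that could turn a direction, turned none of the 9 genes compared. The log2 fold change ranged from 0.99 to 1.05 for Plin2, from -1.02 to -0.78 for G0s2, from -0.90 to -0.56 for Plin4 and from 0.16 to 0.77 for Hilpda, the low gene on which the pseudocount bore most. Without a pseudocount the log2 ratio of G0s2 was -1.002. The number of members past 2-fold was 1, and it became 0 with 5 FPKM as the pseudocount, 3 at a 1.5-fold threshold and 0 at 4-fold. Among all genes 379 passed. This became 739 and 113 with pseudocounts of 0.1 and 5 FPKM, 210 with the filter at 5 FPKM, and 1436 and 26 at 1.5-fold and 4-fold. Scaling both libraries to a larger common sum also shrank the pseudocount, to 0.341 FPKM, or to 0.253 FPKM when the sum left out mitochondrial and top genes. All genes past 2-fold then numbered 596 and 638, and in the latter 2 members passed (Plin2 and G0s2). With the sums made equal on the FPKM scale, added after seeing the data, the pseudocount stayed at 1 FPKM, 376 and 378 genes passed, and 1 member did in both. The median of the members was 0.064 with the filter at 5 FPKM, which left 6 genes, against -0.05. No paired analysis was possible because PRP and control had a single library apiece. Depth limits Cidec, Hilpda and Plin1, and nothing here measures the spread between cultures.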
